A study of Mus musculus with 9 samples.

Results

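The genes of the myosin thick filament were followed in RNA-seq counts of primary neonatal mouse ventricular myocytes (NMVMs), a culture of heart muscle cells prepared from the ventricles of newborn pups. The 8 genes, Myh6, Myh7, Myl2, Myl3, Myl4, Myl7, Mybpc3 and Mylk3, were taken by gene name from the 55401 genes of the deposited table, and each name matched 1 gene. All 8 passed the filter on low counts, which left 16762 genes for testing. The cells came from C57BL/6J pups aged 1 day, were wild type and were grown in DMEM with 10% FBS. Control cultures (n = 3) stayed in normal oxygen and complete medium. Hypoxia cultures (n = 3) spent 6 h in a sealed chamber with an oxygen-absorbing AnaeroPack, in DMEM without glucose or serum. Hypoxia + rSRGN cultures (n = 3) had the same 6 h with recombinant serglycin (rSRGN), a proteoglycan of secretory granules, in the medium. Low oxygen therefore cannot be told apart from the loss of glucose and serum in a comparison with control, whereas the 2 hypoxic groups differed in rSRGN alone, as far as the labels state. The comparisons ask how the transcript levels of the myocytes differed under hypoxia and whether they differed again when rSRGN was present. Libraries held 16583985 to 22781557 counted fragments.

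The thick filament is the motor of the sarcomere. Each myosin molecule is a pair of heavy chains with an ATPase head, and every head carries an essential and a regulatory light chain on its lever arm. In the heart, Myh6 encodes the fast alpha heavy chain and Myh7 the slower beta heavy chain, and the mouse ventricle changes from Myh7 to Myh6 around birth. Myl3 and Myl2 are the essential and regulatory light chains of the ventricle, and Myl4 and Myl7 are their atrial counterparts, which the embryonic ventricle also expresses. Mybpc3 encodes cardiac myosin binding protein C, which links myosin to the thick filament backbone and restrains the heads. Mylk3 encodes the cardiac myosin light chain kinase, which phosphorylates the product of Myl2.

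Myh6 and Myh7 lie next to each other on the minus strand of chromosome 14 in GRCm38, at chr14:54941921-54966927 with 39 merged exons and chr14:54970684-54994626 with 38. Their coding sequences were 91.7% identical over 5802 aligned bases, against 64.5% for Myl2 and Myl7 and 77.0% for Myl3 and Myl4. The longest stretch that the first named GENCODE transcripts of Myh6 and Myh7 share exactly is 245 bases of coding sequence, at positions 4482 to 4726 of the Myh6 transcript and 4458 to 4702 of the Myh7 transcript. It is shown because a fragment from it cannot be assigned to either heavy chain.
Myh6 and Myh7 shared run: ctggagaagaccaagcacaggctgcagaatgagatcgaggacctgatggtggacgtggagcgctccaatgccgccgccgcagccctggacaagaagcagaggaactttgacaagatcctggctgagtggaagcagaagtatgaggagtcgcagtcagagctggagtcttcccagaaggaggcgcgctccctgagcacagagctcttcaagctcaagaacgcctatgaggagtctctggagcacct
Of the 100-base windows of the Myh6 transcript, 11.4% occur in Myh7, while no 50-base window was shared within either light chain pair. Fragments with more than 1 placement were left out of the counts by default, so the levels of both heavy chains may be understated. The light chain pairs are free of this limit at these window lengths.

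The start regions of the genes were taken from RefSeq (GRCm38.p6). The table listed starts for all 8 genes, and 7 had a start within 50 bases of an annotated GENCODE transcript start. The 250 bases before those starts were searched on both strands for short motifs known from heart muscle and hypoxia genes. The MCAT motif CATTCC, which TEAD factors bind, occurred before 5 of the 7 genes and in 12.6% of all 32851 start regions of the same length. The CArG box of serum response factor occurred before 2 of the 7 genes, Myl3 and Myl7, and in 1.47% of all regions. The MEF2 motif occurred before 1 of the 7, Mybpc3, and in 2.92% of all regions. The E-box CANNTG was found before 5 of the 7 and in 66.2% of all regions, and ACGTG, the core of the hypoxia response element, before 1, Myl7, and in 16.57% of all. Of the remaining motifs, the TATA box TATAAA was in 12.4% of all regions, the GATA motif AGATAA in 9.99% and the nuclear receptor motif AGGTCA in 14.02%, and none of these stood before any of the 7 genes. The regions before both heavy chain genes and the 2 light chain genes with a CArG box are shown, 5′ to 3′ on the gene's strand, with every match to these motifs in capitals. No matches overlapped. A match is a run of letters and does not show that a factor was bound.
Myh6, minus strand, chr14:54966608-54966857: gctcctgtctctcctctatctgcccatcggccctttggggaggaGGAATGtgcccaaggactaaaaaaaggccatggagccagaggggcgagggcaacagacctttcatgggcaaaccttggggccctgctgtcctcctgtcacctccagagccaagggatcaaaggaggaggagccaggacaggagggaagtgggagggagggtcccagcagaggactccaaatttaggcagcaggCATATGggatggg
Myh7, minus strand, chr14:54994627-54994876: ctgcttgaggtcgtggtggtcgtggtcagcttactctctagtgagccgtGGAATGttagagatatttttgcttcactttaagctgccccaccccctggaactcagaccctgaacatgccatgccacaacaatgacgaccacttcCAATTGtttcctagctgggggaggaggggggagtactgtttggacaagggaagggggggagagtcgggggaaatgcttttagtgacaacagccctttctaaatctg
Myl3, plus strand, chr9:110763428-110763677: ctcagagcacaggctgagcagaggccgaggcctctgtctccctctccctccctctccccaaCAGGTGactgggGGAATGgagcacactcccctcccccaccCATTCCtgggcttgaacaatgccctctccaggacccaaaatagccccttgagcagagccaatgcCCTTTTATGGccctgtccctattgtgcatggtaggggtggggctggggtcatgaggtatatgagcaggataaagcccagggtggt
Myl7, minus strand, chr11:5898783-5899032: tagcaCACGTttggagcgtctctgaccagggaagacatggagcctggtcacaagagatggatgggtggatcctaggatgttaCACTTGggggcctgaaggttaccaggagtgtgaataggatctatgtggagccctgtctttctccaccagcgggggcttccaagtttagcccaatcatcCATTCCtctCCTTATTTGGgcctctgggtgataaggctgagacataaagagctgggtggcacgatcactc
Both heavy chain regions carry CATTCC on the opposite strand (GGAATG) at nearly the same distance, 206 to 201 bases before the Myh6 start and 201 to 196 bases before the Myh7 start.

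The cultures held other cells beside cardiomyocytes, and the marker sums moved between groups. The summed level of 12 cardiomyocyte markers outside the thick filament was 34241 to 40024 CPM (the count relative to the library size scaled by TMM, in the usual unit) in control, 3345 to 5012 CPM in hypoxia and 6240 to 6488 CPM in hypoxia + rSRGN. All 12 were present in every group, and the test called all 12 lower in hypoxia, the median of their log2 fold changes being -3.56. The sum of 10 fibroblast markers was 11388 to 13425 CPM in control, 22012 to 24792 CPM in hypoxia and 25011 to 25986 CPM in hypoxia + rSRGN, and 7 of the 10 were called higher in hypoxia. In the same comparison 8 of 8 macrophage markers and 5 of 8 endothelial markers were called lower, while in the smooth muscle list of 6 genes 1 was called in each direction. Among all genes tested 25.1% were called lower and 26.4% higher. Of 6 skeletal muscle markers tested 3 were called lower. The 9 listed summed to at most 22.0 CPM in any library, and Myod1 had no count in all 9. In bulk samples such as these, fewer cells of a type and less RNA per cell cannot be told apart. The part of these shifts in the results below was not tested. Mitochondrial genes held 8.30% to 9.51% of counts in control and 4.82% to 5.77% in the hypoxic groups.

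Every thick filament gene was lower in hypoxia than in control. Together the 8 genes held 2.58%, 3.03% and 3.16% of all counts in the 3 control libraries, 0.303%, 0.242% and 0.175% in the hypoxia libraries, and 0.425%, 0.386% and 0.397% in the hypoxia + rSRGN libraries. All 8 passed the test as lower in hypoxia. Their log2 fold changes had a median of -3.75 and ran from -4.95 for Myh7 to -2.23 for Myl7. A gene is called here when edgeR's quasi-likelihood test gave a Benjamini-Hochberg adjusted p below 0.05 and the fold change was at least 1.5. The background was high, since 25.1% of the 16762 genes tested were called lower and 26.4% higher, and the median over all genes was 0.05. In all 8 genes every hypoxia library lay below every control library, which was so for 35.3% of all genes tested. Adjusted p-values of the 8 ran from 2.21e-17 to 1.23e-11. The labels do not say whether libraries of a group came from separate preparations, so p-values measure the spread between these libraries, which may be technical.

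**Figure D1:**
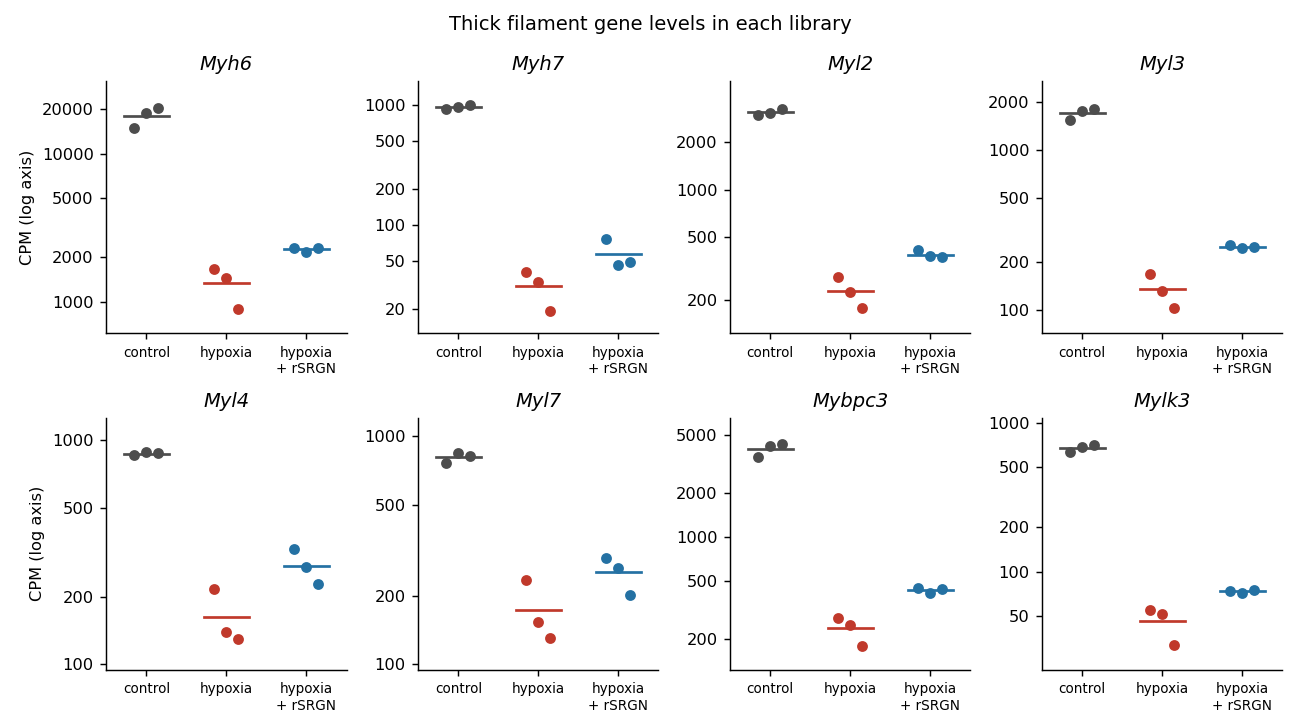
Level of each thick filament gene in each of the 9 libraries, in TMM-scaled CPM on a log axis; points are libraries and lines are group means (n = 3). Control libraries lie highest for all 8 genes, the hypoxia libraries lowest on average, and the hypoxia and hypoxia + rSRGN libraries overlap for Myl7 only.

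Myh6 was by count the most abundant of the 8 genes in every library, and Myh7 had the largest fold difference. Myh6 was at 14783, 18724 and 20287 CPM in control, at 1679, 1454 and 904 CPM in hypoxia, and at 2328, 2188 and 2323 CPM in hypoxia + rSRGN. The 3 groups did not overlap, and Myh6 was 13.3-fold lower in hypoxia than in control (log2 fold change -3.74, SE 0.16, adjusted p = 5.51e-15). Myh7 was at 915, 967 and 995 CPM in control, at 40.2, 33.6 and 19.1 CPM in hypoxia, and at 76.2, 46.6 and 49.0 CPM in hypoxia + rSRGN. The control libraries of Myh7 stood close together and far above both hypoxic groups. Its level in hypoxia was 30.9-fold lower than in control (log2 fold change -4.95, SE 0.20, adjusted p = 1.02e-15). The mean level left in hypoxia was 7.51% of the control mean for Myh6 and 3.23% for Myh7.

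The ventricular light chains followed Myh6 closely. Myl3, the essential chain, was at 1557, 1757 and 1811 CPM in control, at 169, 132 and 104 CPM in hypoxia, and at 256, 243 and 249 CPM in hypoxia + rSRGN. Myl2, the regulatory chain, was at 2988, 3054 and 3263 CPM in control, at 279, 225 and 178 CPM in hypoxia, and at 412, 377 and 375 CPM in hypoxia + rSRGN. For both genes the groups were fully separate in the order control, hypoxia + rSRGN, hypoxia. Myl3 was 12.7-fold lower and Myl2 13.6-fold lower in hypoxia than in control (log2 fold changes -3.66, SE 0.12, and -3.77, SE 0.12). The hypoxia means were 7.90% and 7.34% of the control means.

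The atrial light chains fell least. Myl4, the essential chain, was at 863, 883 and 875 CPM in control, at 216, 139 and 129 CPM in hypoxia, and at 325, 271 and 226 CPM in hypoxia + rSRGN. Myl7, the regulatory chain, was at 767, 845 and 822 CPM in control, at 235, 153 and 130 CPM in hypoxia, and at 292, 266 and 202 CPM in hypoxia + rSRGN. The highest hypoxia library of Myl7 lay above the lowest hypoxia + rSRGN library, while those of Myl4 were separate by a small margin. Against control, Myl4 was 5.42-fold lower and Myl7 4.69-fold lower in hypoxia (log2 fold changes -2.44, SE 0.14, and -2.23, SE 0.15). They kept 18.5% and 21.3% of their control means.

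The filament's accessory genes fell with the ventricular chains. Mybpc3 was at 3555, 4239 and 4313 CPM in control, at 277, 250.5 and 180.3 CPM in hypoxia, and at 446, 413 and 439 CPM in hypoxia + rSRGN. Mylk3, the kinase gene, was at 633, 691 and 711 CPM in control, at 55.5, 51.6 and 32.0 CPM in hypoxia, and at 74.1, 71.5 and 75.4 CPM in hypoxia + rSRGN. Neither gene showed any overlap between groups. Mybpc3 was 17.1-fold lower and Mylk3 14.6-fold lower in hypoxia (log2 fold changes -4.10, SE 0.13, and -3.87, SE 0.13), with 5.85% and 6.83% of the control means left. Hypoxia replicate 3 was the lowest of its group for all 8 genes, and the highest hypoxia library was 1.54 to 2.11 times the lowest. Control replicate 1 was the lowest control library for all 8, but by less, with ratios of 1.02 to 1.37.

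Compared per length, the order of the genes differed between groups. With each level divided by the kilobases of merged exon in the table, the control order was Myh6 (2666 ± 422 CPM per kb, SD, n = 3), Myl2 (1591 ± 73.7), Myl7 (1375 ± 68.3), Mybpc3 (969 ± 100.3), Myl3 (836 ± 65.4), Myl4 (188 ± 2.22), Mylk3 (158 ± 9.43) and Myh7 (111 ± 4.71). Of these neighbours, the libraries of Mybpc3 and Myl3 overlapped and the others did not. In hypoxia Myl7 led with 293 ± 93.3 CPM per kb, before Myh6 with 200.1 ± 59.3 and Myl2 with 117 ± 25.9. The libraries of Myl7 and Myh6 overlapped, as did those of Myh6 and Myl2. Those of Myl7 (221 to 398 CPM per kb) lay above those of Myl2 (91.3 to 143), whereas in control Myl2 (1532 to 1673) lay above Myl7 (1299 to 1432). Myh7 was last in all 3 groups, at 3.60 ± 1.25 CPM per kb in hypoxia. Merged exons cover retained introns and rare exons, which lowers genes such as Myl4 (4637 merged bases, 879 in the first named transcript) and Myl2 (1950 and 662) but not Myl7 (590 and 590). By transcript length Myl2 led in every group, with 4685 ± 217 CPM per kb in control and 344 ± 76.4 in hypoxia, where its libraries overlapped those of Myl7.

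**Figure D2:**
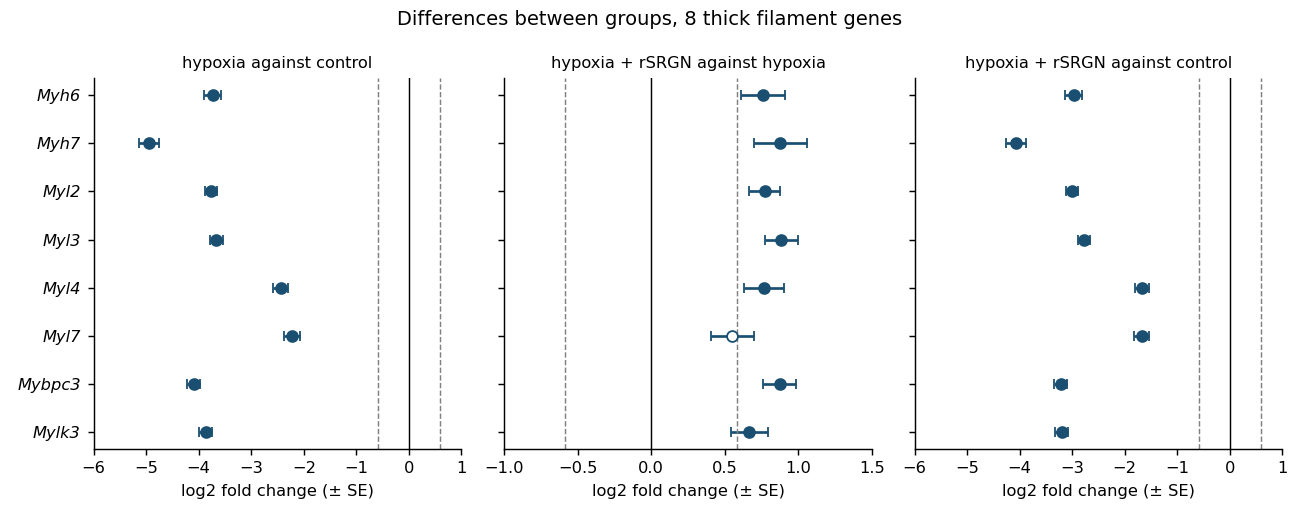
log2 fold change of the 8 genes in the 3 comparisons, with the standard error as bars; filled points were called (adjusted p below 0.05 and at least 1.5-fold) and dashed lines mark 1.5-fold. All points lie far below 0 in both comparisons with control, and between 0.55 and 0.89 for hypoxia + rSRGN against hypoxia, where Myl7 was not called.

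The makeup of each related pair was separate between control and hypoxia in every library, in a design too small to reach a p below 0.1. As counts per kilobase of merged exon, Myh6 made up 95.4%, 96.1% and 96.3% of Myh6 and Myh7 in the control libraries, 98.2%, 98.2% and 98.4% in hypoxia, and 97.5%, 98.4% and 98.4% in hypoxia + rSRGN. Myl7 made up 45.9%, 47.8% and 45.4% of Myl7 and Myl2 in control, 73.6%, 69.2% and 70.7% in hypoxia, and 70.1%, 70.0% and 64.0% in hypoxia + rSRGN. Myl4 made up 19.6%, 18.1% and 17.6% of Myl4 and Myl3 in control, 36.0%, 31.6% and 35.5% in hypoxia, and 35.9%, 32.9% and 28.6% in hypoxia + rSRGN. The alpha heavy chain and both atrial light chains took a larger share in every hypoxic library of either group than in any control library. The mean differences between hypoxia and control were 2.31, 24.8 and 15.9 percentage points for Myh6, Myl7 and Myl4. Each had a two-sided exact permutation p of 0.1, the smallest that 3 against 3 libraries allow, and an adjusted p of 0.15 over 9 such tests. The 95% Wilson interval of a single library's share, which covers counting error only, reached at most 1.42 points to either side.

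Between the 2 hypoxic groups the shares overlapped. The means for hypoxia + rSRGN were lower than those for hypoxia by a little (differences of -0.17, -3.13 and -1.89 points for Myh6, Myl7 and Myl4), with exact permutation p-values of 0.9, 0.4 and 0.6. The absolute shares rest on the length used. By the length of the first named transcript, chosen as an alternative after the data were examined, mean Myl7 shares were 22.7% in control, 45.6% in hypoxia and 42.1% in hypoxia + rSRGN, and mean Myl4 shares were 35.3%, 55.8% and 53.7%. The separation of control from both hypoxic groups held with either length.

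**Figure D3:**
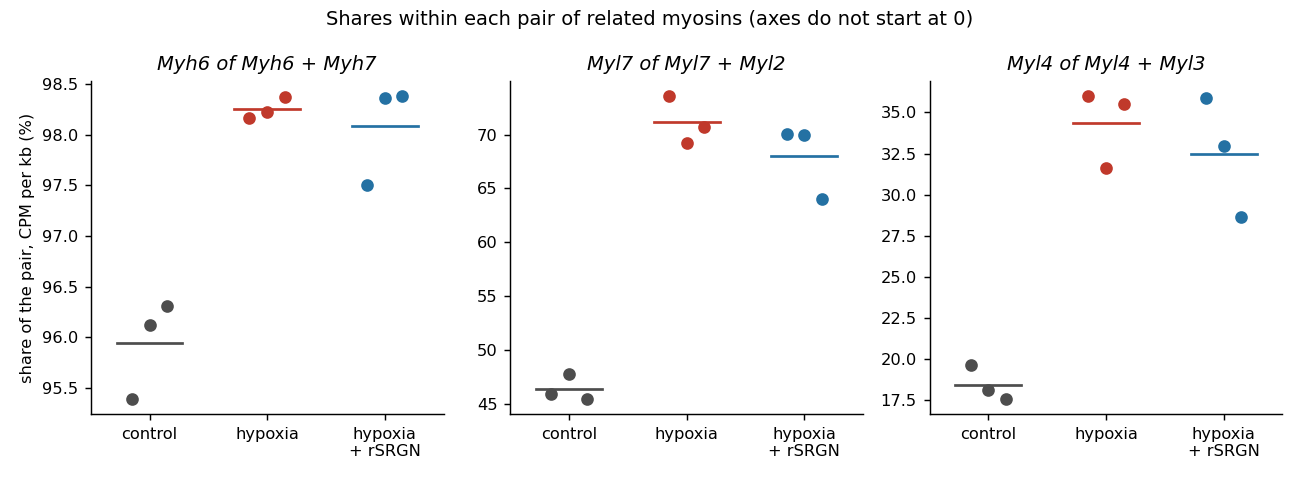
Share of Myh6, Myl7 and Myl4 within its pair of related myosins, as percent of the pair's counts per kilobase of merged exon; points are libraries, lines are means (n = 3), and the axes do not start at 0. Control libraries lie below both hypoxic groups in each panel, and the hypoxia and hypoxia + rSRGN libraries overlap.

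Set against other heart muscle transcripts of the same library, the members had unequal differences. The log2 ratio of each member to the summed counts of the 12 cardiomyocyte markers was computed per library. Myh7 differed most between hypoxia and control, with a mean ratio of -7.19 ± 0.28 (SD, n = 3) in hypoxia and -5.29 ± 0.05 in control, a difference of -1.90. The differences for Mybpc3, Mylk3, Myl2, Myh6 and Myl3 were -0.999, -0.80, -0.68, -0.66 and -0.57. Myl4 and Myl7 went the other way, by 0.64 and 0.84, with ratios of -4.78 ± 0.36 and -4.69 ± 0.34 in hypoxia against -5.42 ± 0.10 and -5.53 ± 0.07 in control. In all 8 genes the hypoxia libraries were separate from control, with an exact permutation p of 0.1 and an adjusted p of 0.12 over 24 tests. This ratio was lower in every hypoxia library than in any control library for 2.05% of all genes tested and higher for 93.4%, so the separation of Myl4 and Myl7 was that of nearly all genes. Tnnt2, the most abundant of the 12 markers in all groups, was lower in hypoxia by a log2 fold change of -2.40, less than the other 11. With the median of the 12 markers in place of their sum the differences were -0.12 for Myh6, -0.14 for Myl2 and -0.03 for Myl3, with exact permutation p-values of 0.2, 0.3 and 1. They were -1.37 for Myh7, -0.46 for Mybpc3, -0.26 for Mylk3, 1.18 for Myl4 and 1.38 for Myl7, each with an exact permutation p of 0.1.

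**Figure D4:**
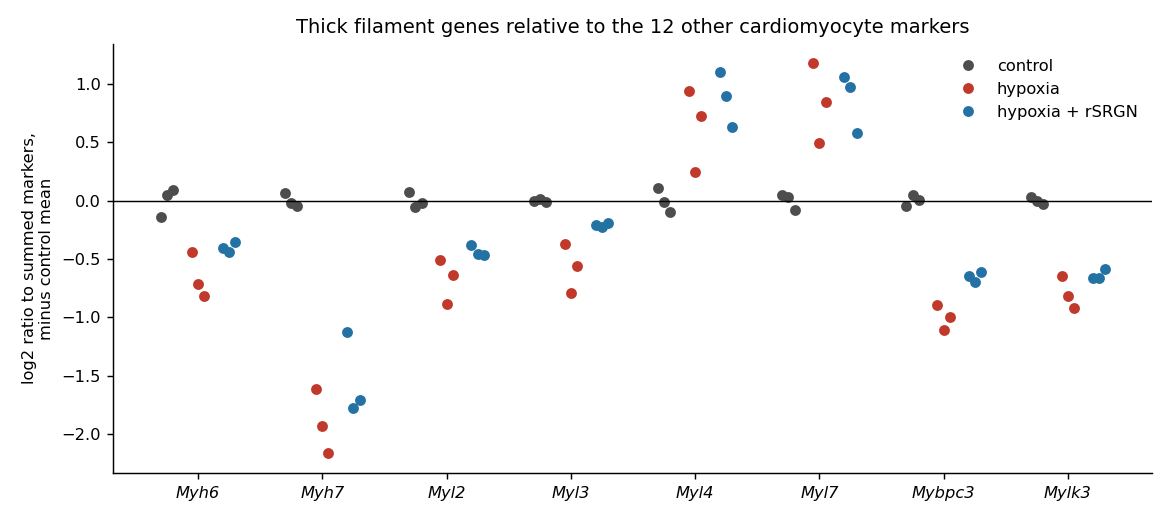
log2 ratio of each member to the summed counts of 12 other cardiomyocyte markers, with the control mean of that gene set to 0; points are libraries. In both hypoxic groups Myh7 lies lowest, Myl4 and Myl7 lie above 0, and the other 5 genes lie below 0.

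With rSRGN present in hypoxia, 7 of the 8 genes were called higher than in hypoxia alone, where 2.27% of all genes tested were called higher and 0.859% lower. The median log2 fold change of the 8 was 0.77, from 0.55 to 0.89, and the median of all genes was -0.03. In the same 7 genes every hypoxia + rSRGN library lay above every hypoxia library, which was so for 16.5% of all genes tested. Myl3 was 1.85-fold higher (log2 fold change 0.89, SE 0.11, adjusted p = 5.62e-05), Myh7 1.84-fold (0.88, SE 0.18, adjusted p = 0.00211) and Mybpc3 1.83-fold (0.87, SE 0.11, adjusted p = 5.62e-05). Myl2 was 1.71-fold higher (0.77, SE 0.11, adjusted p = 0.000118), Myl4 1.70-fold (0.76, SE 0.14, adjusted p = 0.000768), Myh6 1.69-fold (0.76, SE 0.15, adjusted p = 0.00138) and Mylk3 1.59-fold (0.67, SE 0.13, adjusted p = 0.0011). Myl7 had a fold of 1.47 (log2 0.55, SE 0.15, adjusted p = 0.013), under the limit of 1.5, and its libraries overlapped. The fits across all genes that gave these values were edgeR quasi-likelihood tests. Of the 12 cardiomyocyte markers, 10 were called higher as well, with a median of 0.73, and of the 10 fibroblast markers 1 was called, as lower, with a median of 0.06. Of the atrial, ventricular and endothelial markers, 2 of 7, 1 of 5 and 1 of 8 were called higher.

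The size of this difference rested in part on hypoxia replicate 3. Without it 5 of the 8 genes were called, since Myh6 and Mylk3 came to log2 fold changes of 0.54 and 0.46, under the limit, with adjusted p-values of 0.00162 and 0.00116 in the edgeR fit. Without hypoxia replicate 1 or hypoxia + rSRGN replicate 3 all 8 were called, with 0.84 and 0.70 for Myl7. Relative to the summed cardiomyocyte markers, Myh6, Myl2, Myl3 and Mybpc3 were higher in every hypoxia + rSRGN library than in any hypoxia library, by 0.26, 0.24, 0.36 and 0.35 on the log2 scale (exact permutation p = 0.1, adjusted p = 0.12). The same was so for 0.704% of all genes tested. The margin for Myh6 was small, with a ratio of -1.512 in its lowest hypoxia + rSRGN library and -1.517 in its highest hypoxia library. For Myh7, Myl4, Myl7 and Mylk3 this ratio overlapped between the groups, with differences of 0.37, 0.24, 0.03 and 0.16. Tnnt2, the most abundant marker in the sum, had a log2 fold change of 0.23 between these groups and was not called. With the median of the markers in place of their sum, the differences for Myh6 and Myl2 were 0.11 and 0.10, with exact permutation p-values of 0.3 and 0.6, and those for Myl3 and Mybpc3 were 0.22 and 0.20, each with an exact permutation p of 0.1.

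The levels with rSRGN stayed far below control. All 8 genes were called lower in hypoxia + rSRGN than in control, where 24.7% of the genes tested were called lower and 24.1% higher. Their median log2 fold change was -2.99, from -4.07 for Myh7 to -1.67 for Myl4, and every library of all 8 lay below control, as for 36.6% of all genes. This comparison has its control libraries in common with hypoxia against control, so the 2 are not independent. The mean level in hypoxia + rSRGN was 12.7% of the control mean for Myh6, 5.97% for Myh7, 12.5% for Myl2, 14.6% for Myl3, 31.4% for Myl4, 31.2% for Myl7, 10.7% for Mybpc3 and 10.9% for Mylk3.

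Other myosins of the cultures moved in different directions. Of 8 other sarcomeric heavy chain genes only 3 passed the filter, and 2 of these were called lower in hypoxia, as were 25.1% of all genes tested. Myh7b, a slow-type heavy chain gene that hosts a microRNA, was at 60.3 to 66.2 CPM in control and 5.26 to 7.63 CPM in hypoxia (log2 fold change -3.28, SE 0.12). Myh8, the perinatal skeletal heavy chain, was at 6.25 to 9.61 CPM in control and 0.637 to 1.39 CPM in hypoxia (-2.97, SE 0.31). With rSRGN Myh7b was at 5.49 to 6.92 CPM, and its log2 fold change against hypoxia was -0.03 (adjusted p = 0.918, edgeR). In the list of 4 smooth muscle and nonmuscle heavy chains 1 gene, Myh14, was called lower in hypoxia (-3.39, SE 0.29). Myh9, a nonmuscle heavy chain, was at 551 to 683 CPM in control, 822 to 885 CPM in hypoxia and 974 to 1026 CPM in hypoxia + rSRGN. It was called higher only between hypoxia + rSRGN and control (0.67, SE 0.08). Myh10 and Myh11 had log2 fold changes of -0.40 and -0.47 in hypoxia, under the limit of 1.5-fold.

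Of 7 other light chain genes tested, 3 were called higher in hypoxia and 2 lower, where 26.4% and 25.1% of all genes were. Myl1, the fast skeletal essential chain, was lower (-3.17, SE 0.10) and so was Myl9, the smooth muscle regulatory chain (-1.62, SE 0.09). Myl12a and Myl12b, nonmuscle regulatory chains, were higher (1.32, SE 0.07, and 1.77, SE 0.11). Myl12a and Myl12b are closely related genes, and how far this affects their counts was not tested. The third gene called higher was Myl6, the nonmuscle essential chain, at 472 to 476 CPM in control and 729 to 876 CPM in hypoxia. Mylpf, a skeletal regulatory chain, and Myl6b were not called, with log2 fold changes of -0.50 and 0.22. With rSRGN only Myl1 of the 7 was called against hypoxia, higher by 0.70 (SE 0.11). Of 3 other myosin binding protein genes tested, Mybphl was lower in hypoxia (-2.46, SE 0.18) and higher with rSRGN against hypoxia (0.68, SE 0.19, adjusted p = 0.0154). Mybpc2, the fast skeletal form, was also lower in hypoxia (-3.05, SE 0.44), and Mybpc1, the slow skeletal form, was called higher but did not exceed 1.07 CPM in any library. Mybph, the fourth gene of that list, did not pass the filter on low counts, with 8 to 16 counts per library in control, 0 to 7 in hypoxia and 1 to 3 in hypoxia + rSRGN.

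Of 10 genes for light chain kinases and the myosin phosphatase, 4 were called lower and 2 higher in hypoxia, where 25.1% and 26.4% of all genes tested were. Ppp1r12b, a targeting subunit of the phosphatase that is found in striated muscle, was at 278 to 320 CPM in control and 37.6 to 43.0 CPM in hypoxia (-2.91, SE 0.09). Ppp1cb, its catalytic subunit, was lower as well (-1.08, SE 0.08), and so was Mylk4, a kinase gene of heart muscle (-2.74, SE 0.20). Mylk2, the skeletal muscle light chain kinase, was higher in hypoxia, at 7.82 to 9.82 CPM against 2.13 to 2.66 CPM (1.87, SE 0.17). The targeting subunit Ppp1r12c was the other gene called higher, and Rock1 the other called lower. With rSRGN only Mylk4 was called against hypoxia (0.69, SE 0.22, adjusted p = 0.0335).

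Of 10 genes for factors that fold, assemble or turn over myosin, 6 were called lower in hypoxia and 3 higher, where 25.1% and 26.4% of all genes tested were. The 6 were Trim55 (-4.53, SE 0.11), Trim63 (-4.38, SE 0.10) and Trim54 (-4.08, SE 0.17), the MuRF family of sarcomere-bound ubiquitin ligases, together with Smyd1 (-3.92, SE 0.14), a myosin chaperone cofactor of muscle, Unc45b and Smyd2. Unc45b, the muscle myosin chaperone, was at 324 to 362 CPM in control and 20.4 to 40.9 CPM in hypoxia. The 3 called higher, genes of most cell types, were Hsp90aa1 (2.01, SE 0.08), Hsp90ab1 (0.91, SE 0.08) and Unc45a (0.83, SE 0.08). With rSRGN 4 of the 10 were called higher than in hypoxia, Unc45b (0.87, SE 0.14), Trim55 (0.76, SE 0.11), Smyd1 (0.75, SE 0.13) and Trim54 (0.66, SE 0.22), and none lower. Of all genes tested 2.27% were called higher in that comparison.

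Among 19 regulators of cardiac myosin genes, 11 were called in hypoxia against control, each as lower, where 25.1% of all genes tested were called lower. The median log2 fold change of the 19 was -0.68. Irx4, a transcription factor of the ventricle, was at 30.0 to 37.7 CPM in control and 0.637 to 1.79 CPM in hypoxia (-4.90, SE 0.20). Myocd, the serum response factor coactivator, and Nkx2-5, a cardiac homeobox factor, were also lower (-3.60, SE 0.12, and -3.53, SE 0.12). The other genes of this list called lower were Tbx5, Mef2c, Purb, Gata4, Thrb, Mef2d and Tbx20, with log2 fold changes of -2.79, -1.20, -1.01, -0.90, -0.74, -0.68 and -0.68, and the noncoding RNA Mhrt, described with Myh7's antisense genes. Srf, the serum response factor, and Tead1, which binds MCAT, had -0.26 and -0.47, under the limit of 1.5-fold. Irx4, Nkx2-5 and Myocd were called higher with rSRGN against hypoxia, Irx4 by 1.27 (SE 0.26), Nkx2-5 by 0.89 (SE 0.13) and Myocd by 0.67 (SE 0.13), and none was called lower. The share of all genes tested called higher there was 2.27%.

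**Figure D5:**
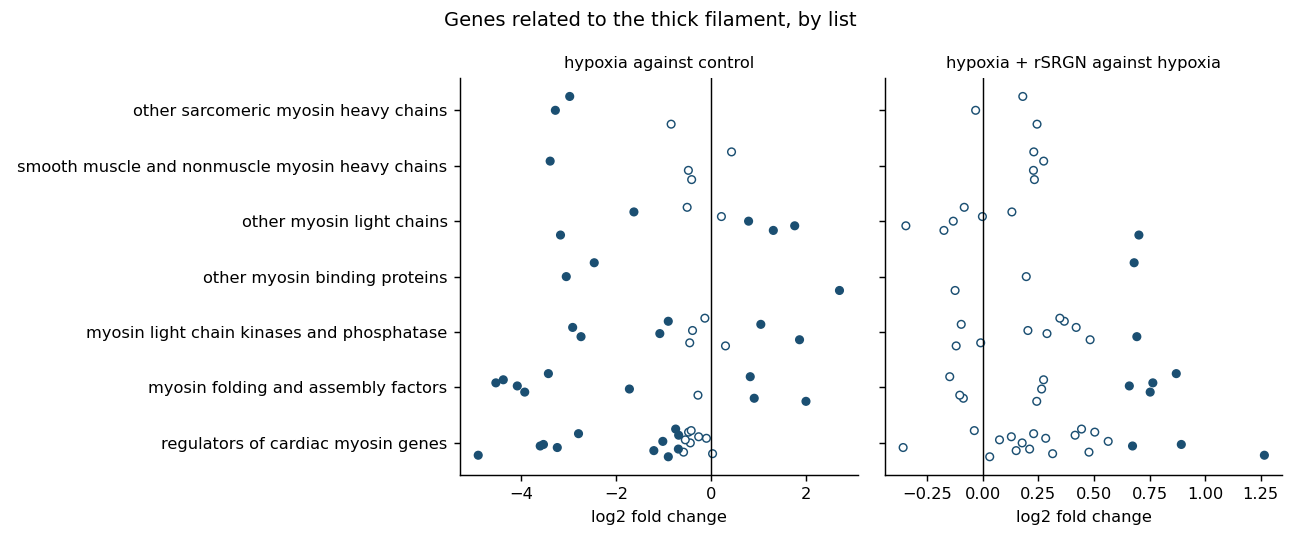
log2 fold change of every tested gene in the 7 lists of related genes, for hypoxia + rSRGN against hypoxia on the right and hypoxia against control on the left; filled points were called. Points of hypoxia against control range from -4.90 to 2.71 and lie on both sides of 0 in most lists, whereas for hypoxia + rSRGN against hypoxia all 10 filled points lie above 0.

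Markers of atrial and ventricular myocytes outside the thick filament were compared in the same libraries. Of 7 atrial markers 4 were called in hypoxia against control, each as lower, with a median of -1.99, and of 5 ventricular markers all 5 were called lower, with a median of -2.81. Among all genes tested 25.1% were called lower. Nppa, the natriuretic peptide gene of the atrium, was at 1946 to 2312 CPM in control and 251 to 530 CPM in hypoxia. Summed, the atrial list came to 2387 to 2797 CPM in control and 499.5 to 805 CPM in hypoxia, and the ventricular list to 89.5 to 105 CPM and 10.6 to 14.3 CPM. Nppa held most of the atrial sum in control. The median library of the atrial list went from 2559 CPM in control to 580 CPM in hypoxia, and that of the ventricular list from 104 to 12.8 CPM. The 3 atrial markers that were not called, Nr2f1, Nr2f2 and Dkk3, had log2 fold changes of -0.08, 0.54 and 0.01. The part of atrial cells in the Myl4 and Myl7 shares was not tested.

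Mhrt, a long noncoding RNA transcribed opposite to Myh7, was called lower in hypoxia than in control. It had 308 to 342 counts in control, 18 to 46 in hypoxia and 20 to 25 in hypoxia + rSRGN (log2 fold change in hypoxia -3.24, SE 0.23). It was not called between the hypoxic groups, where its log2 fold change was -0.36 (adjusted p = 0.466 in the edgeR fit). Its exons share 484 bases with Myh7 (5.62% of the merged exon length), and those of the antisense gene Gm31251 share 523 bases (6.07%). The table was counted without a strand option, so fragments in shared bases cannot be told apart by strand and were left out as ambiguous by default. For the same reason, counts of Mhrt and Gm31251 outside the shared bases may include fragments from the strand of Myh7. That part was not tested. Gm31251 had 149 to 190 counts in control and 1 to 9 in hypoxia, and the antisense gene Gm29015 had no count in any library. Shared exon bases of the other members were few, at most 4.65% of the length (Myl3 with Pth1r).

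The pattern of the members over the 9 libraries was shared with many genes. Among 9750 genes with a mean of at least 10 CPM, the 5 non-members whose log2 CPM correlated best with the mean standardised profile of the 8 were Dsp (Pearson r = 0.999), Myom2 (0.999), Trdn (0.999), Tnni3 (0.999) and Pkia (0.999). Dsp encodes a desmosome protein, Myom2 an M-band protein that binds thick filaments, Trdn triadin of the calcium release unit, Tnni3 cardiac troponin I and Pkia an inhibitor of protein kinase A. Dsp was at 1469 to 1604 CPM in control, 88.3 to 152 CPM in hypoxia and 213 to 234 CPM in hypoxia + rSRGN. The members themselves correlated with the profile at 0.989 for Myl4 and 0.990 for Myl7 up to 0.999 for Myl3. An r of at least 0.95 was reached by 1591 of the 9750 genes. These values are a description, since the 9 points fall into 3 groups and share their libraries.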

How the data were processed

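RNA was measured in 9 libraries of neonatal mouse ventricular myocytes, grouped by their labels. The authors deposited raw fragment counts for each gene, with no normalization. Per the file headers, featureCounts 2.0.1 counted read pairs over exons of GENCODE M25 with the strand option unset. The submitters' processing notes name HISAT2 and mm10, and 0 columns of counts were left unused. 

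All genes were fitted together in edgeR 4.0.16 (R 4.3.3) after filterByExpr and TMM, 1 mean for each group, by the quasi-likelihood method with Benjamini-Hochberg adjustment over 16762 genes. This step was checked on simulated counts in which few genes changed, as many up as down. The check does not cover changes as wide as those between hypoxia and control. Shares within gene pairs and ratios to cardiomyocyte markers were compared by exact permutation tests (scipy 1.17.1). The members, lists and tests were chosen with earlier results of these data known. From each related list the text names up to 4 called genes with the largest change and a mean of at least 1 CPM, and every gene of a list of 4 or fewer, with the 5 genes most like the members. Myl6, Unc45a, Smyd2, Hsp90aa1, Hsp90ab1, Rock1, Tbx5, Mef2c, Purb, Gata4, Thrb, Mef2d, Tbx20, Srf, Tead1, Mylpf, Myl6b, Nppa, Nr2f1, Nr2f2, Dkk3 and Tnnt2 were named after their values were seen, and the CArG box and MEF2 motif were added after the other motifs had been searched.

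Alternatives were DESeq2 1.42.0, other scalings (RLE, upper quartile, library size), other count filters (at least 1 in all, 10 in every library), fits of 2 groups, unadjusted p, no fold limit, a replicate block, and leaving out single libraries. Libraries of a group differed beyond counting noise (chi-square per degree of freedom 3.63 to 13.1). Sequences came from RefSeq (GRCm38.p6) and GENCODE M21 transcripts (GRCm38).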

Additional observations from a re-analysis of the deposited data

How the results depend on the processing

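The count of members called was 8 of 8 in hypoxia against control and in hypoxia + rSRGN against control under all 19 alternatives run for each. For hypoxia + rSRGN against hypoxia it was 5 to 8 when 1 library was left out, 8 without the fold change limit, and 7 under the others. The median log2 fold change of the members ranged from -3.93 to -3.57, from 0.63 to 0.98 and from -3.07 to -2.90 in the 3 comparisons. Among the values for single members, 404 stayed on their side of the threshold and 4 did not, each with a library left out. Without hypoxia replicate 3, Myh6 and Mylk3 had 0.54 and 0.46 in hypoxia + rSRGN against hypoxia and were no longer called, and without hypoxia replicate 1 or hypoxia + rSRGN replicate 3 Myl7 had 0.84 and 0.70 and was called. For Myl7 in that comparison the adjusted p over the alternatives ran from 6.91e-12 to 0.0893, and DESeq2 gave 0.0838. The lowest came from the edgeR fit with the filter of at least 1 count in all. The next lowest, 4.33e-05, came from the edgeR fit without hypoxia replicate 1. Upper-quartile scaling moved the median of all genes by 0.14 in hypoxia against control.

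Some small differences changed sign, and the cause was not tested. Between hypoxia + rSRGN and hypoxia, the Myh6 share differed by -0.32 to 0.12 points and the Myl4 share by -3.58 to 0.0374 points when 1 library was left out. The ratio of Myl7 to the cardiomyocyte markers differed by -0.14 to 0.20 when 1 library was left out and by -0.11 with the median of the markers. With that median the ratio of Myl3 in hypoxia + rSRGN against control was 0.18 in place of -0.21.

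The replicate numbers were not taken to pair the samples. Correlations between same-numbered libraries of different groups were -0.04 to 0.02, and those between differently numbered ones were -0.05 to 0.05. With 3 libraries a group, such values cannot exclude a pairing. With the replicate number as a block, 8, 7 and 8 members were called in the 3 comparisons, with a median of -3.77 in hypoxia against control. The 3 libraries a group limit each exact permutation test to a p of 0.1, and depth does not limit the members, whose lowest count was 330 in a library.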
